A study of Rattus norvegicus with 30 samples.

Results

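The cortex (Cx) of the right kidney was compared between male Sprague-Dawley rats on a low-salt purified diet (AIN-76A with 0.4% NaCl, LS) and rats switched from it to the same diet with 4.0% NaCl for 21 d (HS21), as whole tissue, with mRNA sequenced from 5 libraries in each group. These 10 libraries, of 30 in the series, were chosen by their labels alone, and the other libraries are Cx after 14 d of the high-salt diet (HS14) and the outer medulla (OM) at the same 3 points. The rats whose renal blood flow was followed on the high-salt diet carried a flow probe on the left renal artery and vascular catheters. The study states that the tissue came from other rats, in a separate, parallel group. The sources used here do not make clear what surgery, if any, the rats of the LS and HS21 kidneys had. Time on study and diet differ together between LS and HS21, so their effects cannot be told apart. The question put to these libraries is which genes, gene families and nephron segments differed between LS and HS21.

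The cortex holds glomeruli, where plasma is filtered, and the tubules that return most of the filtrate to the blood. The proximal tubule takes up the bulk of the filtered sodium, bicarbonate, phosphate, glucose, amino acids and protein, and it runs largely on fatty acid oxidation. The thick ascending limb (TAL), the distal convoluted tubule (DCT), the connecting tubule and the collecting duct then take up the remaining sodium through a different apical carrier or channel in each, and the intercalated cells of the collecting duct move acid and base.

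Between 13953714 and 17048749 read pairs were counted on genes in each LS library and between 14641135 and 15627211 in each HS21 library, and genes of the mitochondrial genome took 13% to 14.7% of the LS counts and 14.6% to 18.1% of the HS21 counts. The tissue label held in all 10 libraries. Scaled over the 30 libraries of the series, *Slc5a2*, which encodes the glucose carrier of the early proximal tubule, was at 462 to 820 CPM (counts scaled to a library of 1000000) in Cx and at 1.35 to 63.3 CPM in the OM of the same 2 diets. *Slc14a2*, the urea carrier of the medulla, was at 0 to 0.415 CPM in Cx. In the OM it was at 0 to 524 CPM on LS (median 137) and at 41.9 to 152 CPM at HS21. The OM LS libraries were uneven for *Slc12a3*, a carrier of the DCT, as well (8.61 to 354 CPM, median 14.8). Of 14299 genes tested with edgeR, 2702 (18.9%) were raised and 2936 (20.5%) were lowered at HS21 at an adjusted *P* under 0.05, 39.4% in all. In 26.7% of genes the groups did not overlap, with HS21 above LS in 12% and below it in 14.7%. The median size of a called change was 0.49 on the log2 scale, and 706 raised and 194 lowered genes changed at least 2-fold. Scaling by total counts alone moved the median of all genes by 0.13 on the log2 scale and the split to 4401 raised and 1653 lowered. Lowered calls were concentrated in abundant genes. With genes ranked by mean CPM and split into 4 equal groups, 42.5% were lowered and 13.1% raised in the highest group, against 5.85% and 20.4% in the lowest. The share of mapped bases in introns, which the study tabulates per library, was higher in each HS21 library than in each LS library, so that it and the diet cannot be told apart by more than the spread within the groups. With this share as a covariate, 700 genes were raised and 893 were lowered. The labels do not say that the samples of a group came from separate animals (the study's methods give 5 kidneys per group), and the *P* values measure the spread between these samples.

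Markers of the convoluted part of the proximal tubule were lower at HS21 without exception. All 13 markers of the S1 and S2 segments were tested and all 13 were lowered, against 20.5% lowered among all genes, with a median log2 ratio of -0.71 against 0.00 over all genes. In 11 of them each HS21 library was below each LS library, as in 14.7% of all genes. With intron share as a covariate 9 of the 13 were still called. *Slc4a4* encodes NBCe1, the basolateral carrier through which the proximal tubule returns bicarbonate and sodium to the blood (ENSRNOG00000003134, Rnor_6.0 chr14:20479323-20920286). It was at 1074, 1038, 1023, 1004 and 1082 CPM in the LS libraries and at 494, 376, 332, 432 and 398 CPM in the HS21 libraries. The highest HS21 library lay below the lowest LS library by a wide margin, and the fitted change was log2 ratio -1.36, SE 0.09, adjusted *P* = 3.69e-06. *Slc5a12*, a sodium-coupled lactate carrier, was at 683, 590, 601, 556 and 510 CPM on LS and at 373, 251, 230, 270 and 317 CPM at HS21 (log2 ratio -1.03, SE 0.13, adjusted *P* = 0.000124). *Slc6a19*, the main neutral amino acid carrier of the brush border, changed with very little spread, from 521, 535, 473, 504 and 508 CPM to 317, 298, 324, 322 and 299 CPM (log2 ratio -0.70, SE 0.05, adjusted *P* = 4.98e-06). Neither gene had overlapping groups. *Slc5a2* itself was at 766, 784, 749, 698 and 727 CPM on LS and at 446, 439, 557, 440 and 446 CPM at HS21 (log2 ratio -0.68, SE 0.07, adjusted *P* = 5.29e-05), with 4 of the 5 HS21 libraries within a few CPM of each other and library 13 above them. In bulk tissue, fewer cells of a type and less RNA per cell cannot be told apart, here and for each marker list that follows.

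The size of the fall differed among S1 and S2 genes. *Gatm*, which encodes the first enzyme of creatine synthesis, stood at 7591, 7633, 8147, 8523 and 7711 CPM on LS and at 2592, 3804, 5014, 1400 and 1311 CPM at HS21 (log2 ratio -1.49, SE 0.32, adjusted *P* = 0.00379). The groups did not overlap, and within HS21 libraries 14 and 15 had the lowest values and library 13 the highest. *Slc34a1*, the main phosphate carrier of the brush border, was at 5984, 6441, 5974, 6503 and 6082 CPM on LS and at 3968, 4204, 6051, 4317 and 4199 CPM at HS21 (log2 ratio -0.45, SE 0.11, adjusted *P* = 0.00663), and there the value in library 13 reached the LS range while the other 4 lay below it. The carriers for glucose at the basolateral side (*Slc2a2*, log2 ratio -0.71) and for dicarboxylates (*Slc13a3*, -0.88) were lowered with no overlap.

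Genes expressed along the whole proximal tubule fell as well. Of 15 tested, 13 were lowered and none was raised (median -0.55), 12 of them without overlap. The pair of scavenger receptors that take up filtered protein moved by similar amounts. *Lrp2* (megalin; ENSRNOG00000056184, chr3:55665145-55822551) was at 5411, 5371, 4903, 5636 and 5158 CPM on LS and at 2763, 2318, 3024, 2829 and 2359 CPM at HS21 (log2 ratio -0.99, SE 0.08, adjusted *P* = 1.56e-05). *Cubn* (cubilin) was at 845, 973, 873, 930 and 938 CPM and at 491, 367, 449, 511 and 525 CPM (log2 ratio -0.96, SE 0.09, adjusted *P* = 2.95e-05). *Dab2*, the clathrin adaptor that carries megalin into the cell, changed by -1.24 (SE 0.08), and *Clcn5*, the chloride and proton exchanger of the endosomes that receive this cargo, by -0.98 (SE 0.17), and neither had overlapping groups. The urate carrier *Slc22a12* (-0.97), the water channel *Aqp1* (-0.48) and the gluconeogenic enzyme *Fbp1* (-0.87) were lowered, each without overlap. *Slc9a3*, the sodium and proton exchanger NHE3, did not pass the test, at 192, 197, 193, 205 and 226 CPM on LS and 159, 141, 206, 196 and 171 CPM at HS21 (log2 ratio -0.21, SE 0.10, adjusted *P* = 0.101). When each library was left out in turn, its lowest adjusted *P* was 0.0275.

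The straight S3 segment gave a different picture. Of 11 markers tested, 1 was raised and 3 were lowered, against 18.9% and 20.5% of all genes, and the median was 0.00. *Slc5a8*, a monocarboxylate carrier, was at 143, 96.1, 202, 139 and 154 CPM on LS and 68.5, 55, 41.7, 51 and 59.2 CPM at HS21 (log2 ratio -1.41, SE 0.18, adjusted *P* = 0.000149), and *Slc16a9* and *Slc3a1* were lowered by less (-0.56 and -0.45). *Slc7a13*, a cystine and aspartate carrier that marks S3, ranged from 13.6 to 113 CPM on LS and from 43.4 to 179 CPM at HS21, so that the groups overlapped widely (log2 ratio 0.98, SE 0.50, adjusted *P* = 0.144). The raised member was *Slc22a7*, an anion carrier at 1.55 CPM or less in every library, and leaving out any of 8 libraries ended its call (adjusted *P* up to 0.111, without LS library 5).

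Of 24 nephron transcription factors 7 (29.2%) were raised and 6 (25.0%) lowered, against 18.9% and 20.5% of all genes. *Hnf4a*, a nuclear receptor needed for proximal identity, was at 1114, 1038, 1136, 1165 and 1154 CPM on LS and at 673, 689, 907, 886 and 839 CPM at HS21, with no overlap (log2 ratio -0.49, SE 0.09, adjusted *P* = 0.00126). *Hnf4g* (-0.99), the bZIP factor *Maf* (-0.94) and *Ppara*, the fatty acid sensor that turns on oxidation genes (-1.08), were lowered by more. *Ppara* was at 59.6, 66.5, 81.6, 69.8 and 68.5 CPM on LS and at 30.1, 31.1, 31.5, 30.9 and 40.2 CPM at HS21. Raised factors included *Foxi1*, the regulator of intercalated cells (0.64), *Tfap2a* (0.97) and *Esrrb* (0.64).

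**Figure D1:**
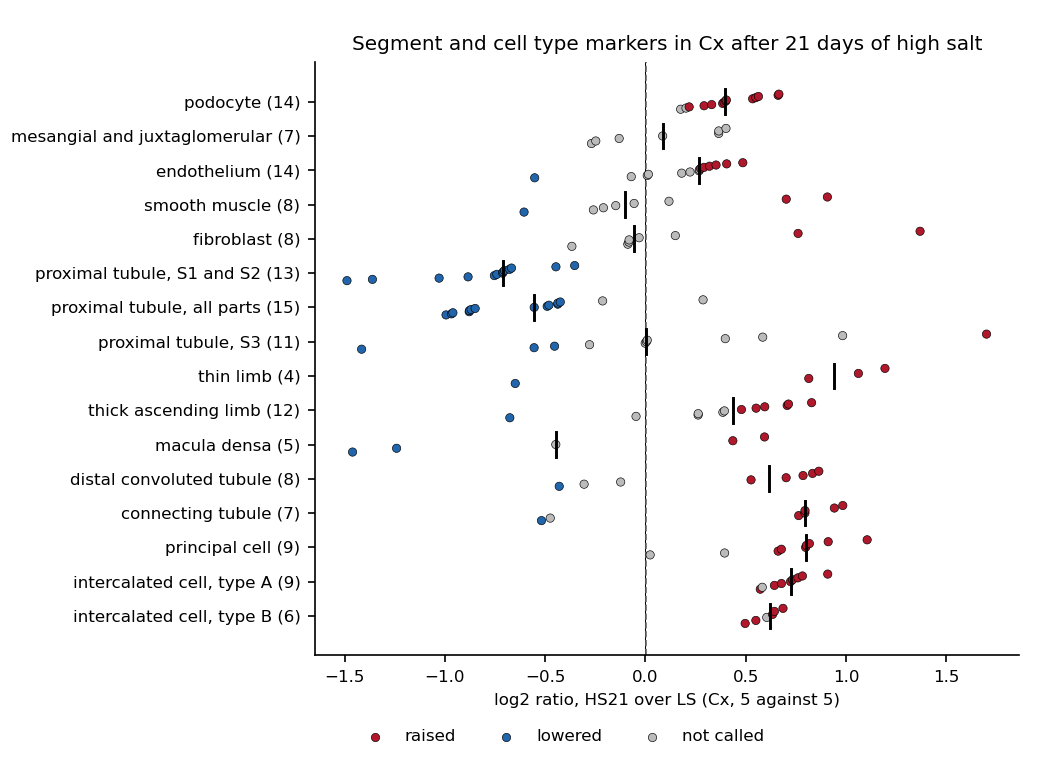
The log2 ratio of HS21 over LS in Cx is plotted on the x axis for each tested marker gene of 16 segment and cell type lists (y axis, number of tested genes in brackets), with a bar at each list's median, a dashed line at the median of all genes and colour for raised, lowered and not called. All 13 markers of proximal tubule S1 and S2 lie below 0, S3 is centred on 0, and most markers of the distal segments and podocytes lie above 0.

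Podocyte genes were higher at HS21 by a small amount. Podocytes cover the glomerular capillaries and form the slit diaphragm of the filter. Of 14 markers 12 were raised and none was lowered (median 0.40), 7 of them without overlap, and 5 were called with intron share as a covariate. *Nphs1* (nephrin, the main slit diaphragm protein; ENSRNOG00000020873, chr1:88922433-88950559) was at 107, 129, 128, 135 and 128 CPM on LS and at 186, 178, 171, 129 and 153 CPM at HS21 (log2 ratio 0.38, SE 0.10, adjusted *P* = 0.00866), and of the HS21 libraries only number 14 was within the LS range. *Cdkn1c*, a cell cycle inhibitor of mature podocytes (0.66), was raised with no overlap. None of the 7 mesangial and juxtaglomerular markers was called (median 0.09). Of 14 endothelial genes 6 were raised and 1 lowered (median 0.27). *Emcn*, a sialomucin of glomerular and venous endothelium, was at 53.2, 53.7, 55.4, 53.9 and 51.5 CPM on LS and at 65.9, 63.4, 59.4, 67.7 and 71.2 CPM at HS21 (log2 ratio 0.29, SE 0.05, adjusted *P* = 0.00145). The lowered gene was *Vwf*, the clotting factor carrier (-0.55, adjusted *P* = 0.0439), which missed the threshold when any of 7 libraries was left out (up to 0.105, without LS library 4). Of 8 smooth muscle genes 2 were raised and 1, the pericyte gene *Rgs5* (-0.61), was lowered, and of 8 fibroblast genes 2 were raised. The collagen genes of fibroblasts in that list were not called. Of all genes 18.9% were raised and 20.5% lowered, and counts out of 8 genes are not read further.

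The distal nephron rose from the TAL onward. Of 12 TAL markers 6 were raised and 1 lowered (median 0.44). *Umod* encodes uromodulin, the most abundant protein of normal urine (ENSRNOG00000015557, chr1:189186026-189199376). It was at 1081, 825, 1063, 1135 and 1351 CPM on LS and at 2036, 1678, 2100, 1607 and 1516 CPM at HS21 (log2 ratio 0.71, SE 0.13, adjusted *P* = 0.00132). *Slc12a1*, the sodium, potassium and chloride cotransporter NKCC2 that loop diuretics block, was at 311, 274, 330, 363 and 345 CPM and 554, 484, 522, 427 and 393 CPM (log2 ratio 0.55, SE 0.10, adjusted *P* = 0.00145). *Kcnj1*, the potassium channel ROMK that recycles potassium for this carrier, was at 178, 166, 155, 164 and 139 CPM and 300, 394, 283, 216 and 231 CPM (log2 ratio 0.83, SE 0.14, adjusted *P* = 0.000998). Each of these genes had its 5 HS21 libraries above its 5 LS libraries, with the lowest HS21 values in numbers 14 and 15. The lowered gene was *Cldn10*, a tight junction claudin, at 112, 113, 110, 110 and 93.1 CPM on LS and 67.3, 61.8, 87.3, 64.5 and 56.3 CPM at HS21 (log2 ratio -0.68, SE 0.11, adjusted *P* = 0.000534). With intron share as a covariate no TAL marker was raised and *Cldn10* was still lowered.

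Genes of the macula densa, the sensor plate at the end of the TAL, did not move one way. *Ptgs2* (cyclooxygenase 2, which makes prostaglandins) was at 3.87, 5.55, 15.9, 14.8 and 12.5 CPM on LS and at 3.63, 4.17, 1.71, 3.78 and 5.82 CPM at HS21 (log2 ratio -1.46, SE 0.41, adjusted *P* = 0.0139). With intron share as a covariate its direction turned and it was not called (log2 ratio 0.51, adjusted *P* = 0.545). *Pappa2*, a metalloprotease of macula densa cells, was at 4.89, 12.4, 13.5, 12.5 and 6.29 CPM and 4.71, 3.72, 2.17, 4.84 and 5.5 CPM (log2 ratio -1.24, SE 0.32, adjusted *P* = 0.00932). In both genes LS library 1 was the lowest of its group and lay within the HS21 range, LS libraries 3 and 4 were the highest, and for *Ptgs2* LS library 2 was within the HS21 range too. *Nos1*, the neuronal nitric oxide synthase, had the same sign without passing the test (log2 ratio -0.45, SE 0.18, adjusted *P* = 0.0658). The other 2 markers, *Avpr1a* (0.59) and *Robo2* (0.44), were raised, and neither was called without LS library 1 (adjusted *P* 0.0542 for *Robo2*, up to 0.0854 for *Avpr1a* when each library was left out). Of 9 genes of the renin-angiotensin system 1 was raised and 3 were lowered, against 18.9% and 20.5% of all genes. *Agtr1a*, the angiotensin II receptor of the kidney, was at 61.5, 59.9, 57.5, 58.9 and 53.1 CPM on LS and 38.5, 43.4, 48.3, 47.4 and 43.1 CPM at HS21, with no overlap (log2 ratio -0.40, SE 0.07, adjusted *P* = 0.000969). *Mme* (neprilysin) was raised (0.69).

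In the DCT 5 of 8 markers were raised and 1 was lowered (median 0.61). *Slc12a3*, the thiazide-sensitive cotransporter NCC (ENSRNOG00000057072, chr19:11106033-11144641), was at 1137, 1015, 1024, 979 and 931 CPM on LS and at 1558, 2552, 2035, 1344 and 1568 CPM at HS21 (log2 ratio 0.83, SE 0.15, adjusted *P* = 0.00132). Regulators of this carrier rose with it. *Wnk1*, a kinase of the pathway that phosphorylates NCC, was at 885, 824, 705, 661 and 714 CPM and 1331, 1862, 1053, 992 and 930 CPM (log2 ratio 0.70, SE 0.18, adjusted *P* = 0.00791), and *Klhl3*, the adaptor that sends WNK kinases to degradation, changed by 0.79 (SE 0.15). The lowered gene was *Fgf13* (-0.43). Over 11 genes of WNK, SGK and mineralocorticoid signalling 7 were raised and 1 lowered (median 0.70). *Nr3c2*, the mineralocorticoid receptor, was at 16, 14.3, 16.5, 13.4 and 13.4 CPM on LS and 29.4, 34.5, 22.2, 18.3 and 22.9 CPM at HS21 (log2 ratio 0.79, SE 0.16, adjusted *P* = 0.00205). *Hsd11b2*, the enzyme that shields this receptor from glucocorticoids, was at 331, 331, 339, 271 and 263 CPM and 556, 692, 596, 376 and 456 CPM (log2 ratio 0.80, SE 0.15, adjusted *P* = 0.00142). Both were without overlap, and both were highest in library 12. *Tsc22d3*, a gene induced by corticosteroids, was raised by more (1.42, SE 0.35) with the highest value in library 15.

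All 3 subunits of the epithelial sodium channel ENaC, the aldosterone-dependent entry path of the connecting tubule and collecting duct, were raised. *Scnn1a* (alpha) was at 95, 85, 92.3, 87.4 and 86.9 CPM on LS and 149, 160, 169, 136 and 173 CPM at HS21 (log2 ratio 0.82, SE 0.07, adjusted *P* = 1.56e-05). *Scnn1b* (beta) was at 44.9, 49.5, 48.4, 41.4 and 41.8 CPM and 91.6, 118, 94, 67.1 and 75.7 CPM (log2 ratio 0.98, SE 0.13, adjusted *P* = 0.000223). *Scnn1g* (gamma; ENSRNOG00000017842, chr1:191704311-191738268) was at 42.3, 46.3, 41.5, 46.4 and 44.9 CPM and 98.3, 108, 87.7, 60.9 and 70.2 CPM (log2 ratio 0.94, SE 0.14, adjusted *P* = 0.000341). The groups did not overlap for any subunit. Within HS21 the alpha subunit varied little, while the other two were lowest in libraries 14 and 15. Of 7 connecting tubule markers 5 were raised and 1, the calcium pump *Atp2b1* (-0.52), was lowered. The calcium-binding protein *Calb1* (0.80) and the calcium channel *Trpv5* (0.76) rested on fewer libraries. *Calb1* was at 584, 1623, 935, 626 and 472 CPM at HS21 against 579, 452, 550, 497 and 366 CPM on LS, and leaving out any of 7 libraries ended its call (adjusted *P* up to 0.109, without LS library 5), as did any of 3 for *Trpv5* (up to 0.0581). Without LS library 3 the list had 2 raised members instead of 5.

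Principal cells of the collecting duct, which move sodium and water, had 7 of 9 markers raised and none lowered (median 0.80). *Aqp2*, the vasopressin-regulated water channel, was at 128, 135, 137, 145 and 181 CPM on LS and at 267, 440, 339, 295 and 221 CPM at HS21 (log2 ratio 1.10, SE 0.16, adjusted *P* = 0.000402), and *Aqp4*, a basolateral water channel, changed by 0.91 (SE 0.21). Acid-secreting type A intercalated cells had 8 of 9 raised (median 0.72), all 8 without overlap. *Slc4a1*, their basolateral anion exchanger, was at 342, 404, 398, 315 and 320 CPM on LS and 573, 742, 636, 447 and 560 CPM at HS21 (log2 ratio 0.73, SE 0.12, adjusted *P* = 0.000854), and the ammonia channel *Rhcg* at 167, 168, 156, 152 and 139 CPM and 325, 372, 303, 208 and 259 CPM (log2 ratio 0.91, SE 0.13, adjusted *P* = 0.000327). Base-secreting type B cells had 5 of 6 raised (median 0.62). *Slc26a4* (pendrin), their apical chloride and bicarbonate exchanger, was at 151, 129, 110, 99.7 and 97.5 CPM on LS and 250, 213, 164, 153 and 132 CPM at HS21 (log2 ratio 0.63, SE 0.18, adjusted *P* = 0.0142), with overlap from HS21 library 15 and LS library 1. *Slc4a9*, the basolateral sodium and bicarbonate carrier of the same cells, had no overlap (0.69). With intron share as a covariate, 0 DCT, 0 connecting tubule, 1 principal cell, 1 type A and 1 type B markers were still raised.

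Water channels and potassium and chloride channels had calls in both directions. Of 8 aquaporins 3 were raised (*Aqp2*, *Aqp4* and *Aqp6*, at 1.10, 0.91 and 0.76) and 3 were lowered, among them *Aqp1*. Of 12 channel genes of tubules 8 were raised and 3 lowered. Both sets of counts stand beside 18.9% raised and 20.5% lowered among all genes, and the 3 lowered of 12 are near that share. *Kcnj15* was at 366, 405, 342, 390 and 373 CPM on LS and 202, 177, 189, 187 and 188 CPM at HS21 (log2 ratio -0.99, SE 0.06, adjusted *P* = 3.28e-06), with little spread in either group. *Kcnj16* was lowered by less (-0.31).

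**Figure D2:**
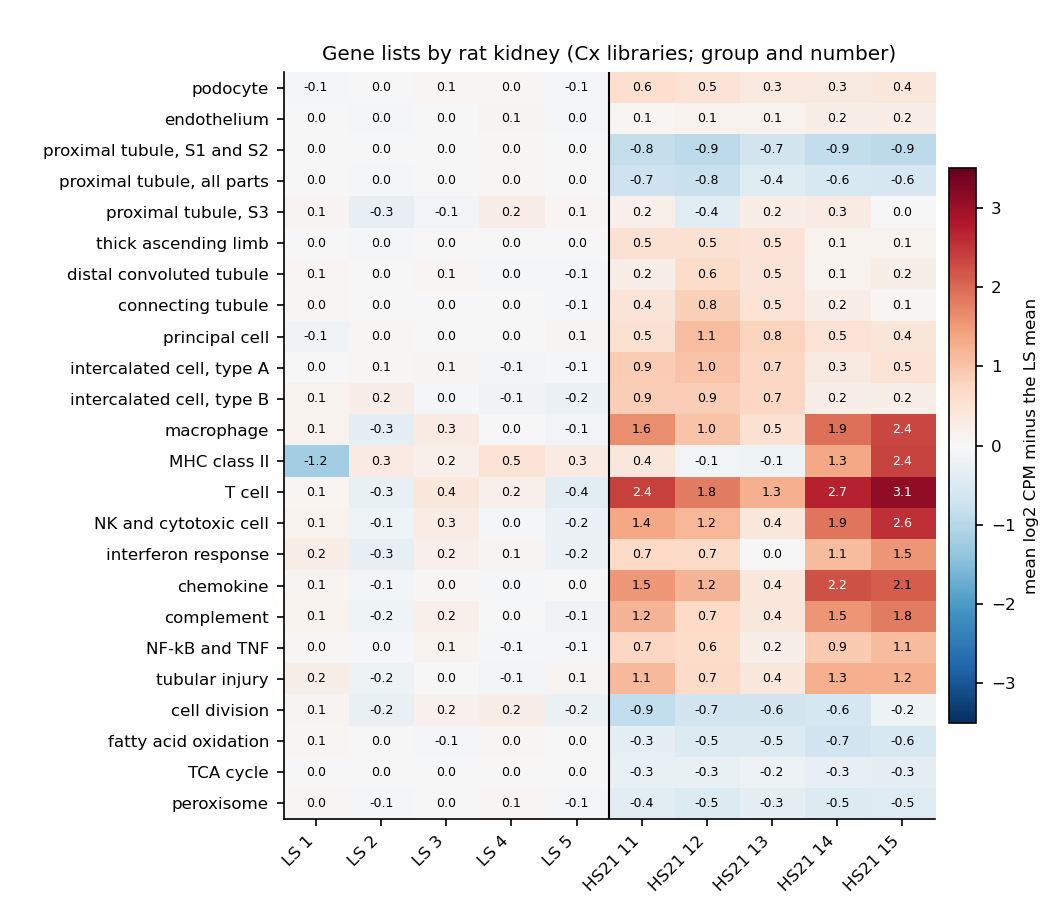
Each cell gives the mean log2 CPM over a list's tested genes in 1 Cx library minus the mean of the 5 LS libraries, for 24 lists (rows) and 10 libraries (columns, with group and number). Proximal tubule S1 and S2 is between -0.65 and -0.91 in all HS21 libraries, distal lists are highest in libraries 11 to 13, and the macrophage, T cell and chemokine lists are highest in libraries 14 and 15 and lowest in 13.

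The HS21 kidneys were not alike. The mean log2 CPM of proximal S1 and S2 markers was below the LS mean in all 5, and by least in library 13 (-0.83, -0.91, -0.65, -0.86 and -0.91 in libraries 11 to 15). TAL markers were above the LS mean by 0.54, 0.53 and 0.47 in libraries 11, 12 and 13 and by 0.11 and 0.12 in libraries 14 and 15. Type A intercalated markers were above it by 0.90, 1.01, 0.72, 0.31 and 0.47. T cell genes were at 2.39, 1.79, 1.26, 2.71 and 3.11 above the LS mean, so that libraries 14 and 15 had the lowest values for TAL and type A markers and the highest for T cell genes, and library 13 the lowest for T cell genes. The part of leukocyte RNA in the other differences was not tested.

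Leukocyte genes rose in every HS21 library. All 11 tested general leukocyte genes, all 12 macrophage genes and all 12 T cell genes were raised (medians 1.78, 1.62 and 2.62), and all 12 T cell genes were still called with intron share as a covariate. *Lyz2* (lysozyme of macrophages and neutrophils) was at 153, 117, 195, 159 and 169 CPM on LS and at 830, 413, 245, 1326 and 2427 CPM at HS21 (log2 ratio 2.72, SE 0.52, adjusted *P* = 0.00168), lowest at HS21 in library 13 and highest in library 15. *Cybb*, the catalytic subunit of the phagocyte NADPH oxidase, was at 50.7, 38, 41.1, 39.6 and 36.7 CPM and 104, 78.3, 57.2, 112 and 147 CPM (log2 ratio 1.28, SE 0.21, adjusted *P* = 0.000736), and its partner *Ncf1* changed by 1.80 (SE 0.28). The NADPH oxidase of tubule cells moved the other way. *Nox4* was at 548, 541, 482, 478 and 525 CPM on LS and 246, 225, 255, 244 and 235 CPM at HS21 (log2 ratio -1.10, SE 0.06, adjusted *P* = 3.28e-06; ENSRNOG00000013925, chr1:150797084-150976194). Of 8 tested cytotoxic cell genes 6 were raised. Most markers of B cells (7 of 10) and neutrophils (7 of 10) and all 6 of mast cells were too low to test. *Cd22* of B cells (1.49) and *Csf3r* (1.93) and *S100a9* (3.58) of neutrophils were raised. *S100a9* was at 0.146, 0.225, 0.293, 0.488 and 0.183 CPM on LS and 3.51, 2.71, 1.64, 4.22 and 4.34 CPM at HS21. No erythroid gene was raised.

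MHC class II genes, which present antigen to T helper cells, did not all behave alike, and *RT1-Ba* and *RT1-Bb* split by library. Of 9 class II genes tested 5 were raised and none lowered (median 1.07). *Cd74*, the invariant chain, was at 786, 844, 823, 853 and 718 CPM on LS and 1564, 1305, 949, 2024 and 2551 CPM at HS21 (log2 ratio 1.06, SE 0.21, adjusted *P* = 0.00233), and *Ciita*, the switch of class II transcription, at 12.1, 14.5, 12.6, 15.3 and 14.5 CPM and 32.2, 25.1, 16.1, 51.4 and 72.9 CPM (log2 ratio 1.52, SE 0.34, adjusted *P* = 0.00404). The class II chain gene *RT1-Ba* (ENSRNOG00000000451, chr20:4066132-4070721) was at 0.876, 54.2, 51.4, 51.6 and 43.3 CPM in LS libraries 1 to 5 and at 3.14, 3.28, 1.97, 74.1 and 93.1 CPM in HS21 libraries 11 to 15. *RT1-Bb* followed it, at 8.83, 116, 133, 135 and 111 CPM and 37.8, 32.8, 17.7, 231 and 286 CPM. In *RT1-Ba* LS library 1 and HS21 libraries 11, 12 and 13 were at 3.28 CPM or less and the other 6 libraries at 43.3 CPM or more, in both diets, and neither gene differed between the diets (adjusted *P* = 0.899 and 0.82). Both were singled out after their values were seen. Class II genes are close copies of each other and differ between rats, and reads of 1 may be counted on another.

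**Figure D3:**
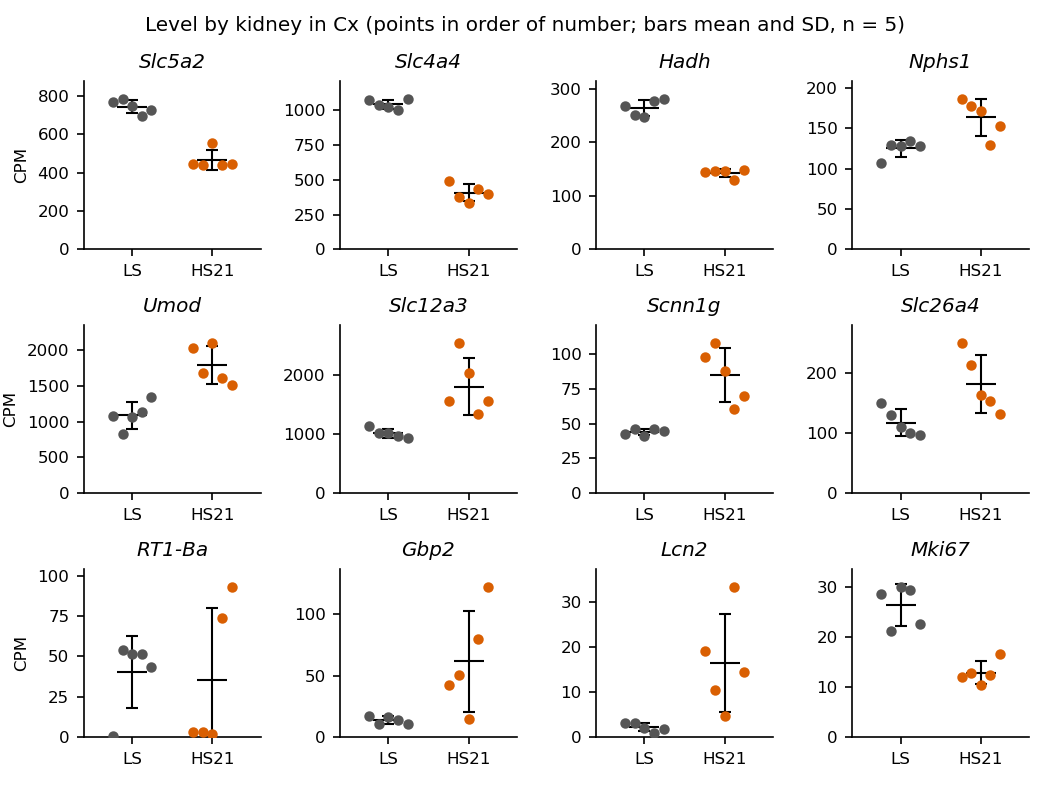
CPM (y axis, linear from 0) of 12 genes in the 5 LS (grey) and 5 HS21 (orange) Cx libraries, as points in order of library number with the mean and SD of each group. *Slc4a4*, *Hadh* and *Mki67* are lower and *Scnn1g* and *Lcn2* higher at HS21 without overlap, and *RT1-Ba* falls into high and low libraries in both groups, with its lower SD bar at HS21 cut at 0.

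Chemokines, complement and targets of NF-kB rose. Of 15 chemokine genes 12 were raised and none lowered (median 1.59), of 16 complement genes 14 (median 1.11), and of 14 genes of NF-kB and TNF signalling 12 (median 0.69). *Cxcl9*, which draws activated T cells, had the largest log2 ratio of the genes named here, with overlap. It was at 1.24, 0.975, 1.83, 0.906 and 1.59 CPM on LS and at 12.1, 8.96, 1.71, 58.8 and 60.8 CPM at HS21 (log2 ratio 4.43, SE 0.87, adjusted *P* = 0.0021). *Ccl5*, made by T and cytotoxic cells, was at 3.8, 3.38, 4.83, 2.23 and 2.87 CPM and 25.3, 14.4, 5.32, 41.9 and 69.3 CPM (log2 ratio 3.19, SE 0.58, adjusted *P* = 0.00135). *Ccl19*, which guides cells to lymphoid tissue, was at 1.24, 0.525, 0.512, 0.906 and 0.610 CPM and 10.2, 3.28, 2.76, 19.5 and 15.9 CPM (log2 ratio 3.75, SE 0.59, adjusted *P* = 0.000528). In each of these genes library 13 was the lowest of HS21 and libraries 14 and 15 were the highest. Among complement genes *C2* (2.94) and *C4b* (1.93) of the classical pathway were raised, and *Nfkbia*, the NF-kB inhibitor that NF-kB induces, by 1.09.

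Of 19 tested genes that respond to interferon 10 were raised, none was lowered and 9 did not pass the test (median 0.61). *Gbp2*, a guanylate-binding protein of defence against intracellular microbes (ENSRNOG00000031743, chr2:248276709-248293784), was at 17.6, 10.4, 16.2, 14.3 and 11 CPM on LS and at 42.3, 50.5, 14.4, 80.0 and 122 CPM at HS21 (log2 ratio 2.16, SE 0.44, adjusted *P* = 0.00269). *Psmb8*, a subunit of the immunoproteasome that cuts peptides for MHC class I, was at 9.13, 4.13, 6.51, 4.67 and 2.75 CPM and 32, 25.8, 12.9, 36.3 and 50.9 CPM (log2 ratio 2.55, SE 0.37, adjusted *P* = 0.000364). *Irf1*, the transcription factor that interferon gamma induces, was at 19, 19.2, 20.3, 18.3 and 18.9 CPM and 49.7, 60.0, 27.3, 84.5 and 113 CPM (log2 ratio 1.81, SE 0.30, adjusted *P* = 0.000744). Library 13 was lowest in each and within the LS range for *Gbp2*. *Psmb9* (2.18) and *Gbp5* (2.15) were raised as well. Of the 9 not called, the antiviral gene *Mx1* was at 21.2, 12.5, 14.1, 18 and 14.9 CPM on LS and 13.9, 17.5, 8.86, 20.6 and 26.3 CPM at HS21 (log2 ratio 0.11, SE 0.25, adjusted *P* = 0.748), and *Isg15*, a ubiquitin-like modifier, at 6.9 ± 0.916 CPM (SD, n = 5) on LS and 8.07 ± 0.933 CPM at HS21 (log2 ratio 0.23, SE 0.13, adjusted *P* = 0.186). The last 2 were picked as examples after their values were seen.

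The promoters of *Gbp2* and *Psmb8* are shown because both genes rose and both windows hold a core of the interferon-stimulated response element. The RefSeq windows run from 250 bases before to 50 after the start of the gene on build GRCr8, whose coordinates differ from those of the deposited table. The pattern searched was GAAANNGAA on both strands, without overlap with another motif searched, and 9.71% of 33469 rat promoter windows hold it. Of the 19 tested interferon genes 14 had a window and 8 of these hold the pattern, raised and not raised genes among them, and with under 80% matched that share is not read further. Capitals mark the match, here as its reverse complement. *Gbp2* is at chr2:234005477-234005776 on the plus strand and *Psmb8* at chr20:4656982-4657281 on the minus strand.
Gbp2: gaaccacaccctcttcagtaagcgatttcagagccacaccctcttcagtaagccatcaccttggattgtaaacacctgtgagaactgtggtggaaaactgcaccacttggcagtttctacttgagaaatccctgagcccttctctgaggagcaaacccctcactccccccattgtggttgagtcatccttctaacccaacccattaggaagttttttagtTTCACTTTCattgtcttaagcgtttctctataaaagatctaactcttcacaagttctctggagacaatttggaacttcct
Psmb8: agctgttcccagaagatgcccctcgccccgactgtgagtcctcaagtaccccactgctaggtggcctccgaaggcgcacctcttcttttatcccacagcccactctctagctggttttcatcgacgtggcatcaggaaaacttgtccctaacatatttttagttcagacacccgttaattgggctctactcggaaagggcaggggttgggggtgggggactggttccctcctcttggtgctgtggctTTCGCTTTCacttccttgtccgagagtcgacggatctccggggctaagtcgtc

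Genes of tubular injury were raised in 11 of 15 cases and lowered in 2 (median 0.96). *Lcn2* encodes NGAL, an iron-trapping protein that injured tubules release (ENSRNOG00000013973, chr3:11414186-11417546). It was at 3.07, 3.08, 2.12, 0.976 and 1.71 CPM on LS and at 19.1, 10.4, 4.6, 33.3 and 14.4 CPM at HS21 (log2 ratio 2.91, SE 0.49, adjusted *P* = 0.000814). *Spp1* (osteopontin) was at 296, 120, 152, 119 and 148 CPM and 688, 322, 290, 795 and 612 CPM (log2 ratio 1.70, SE 0.33, adjusted *P* = 0.00195), where LS library 1 lay above HS21 library 13. *Cd44*, its receptor, changed by 1.71 (SE 0.29). *Havcr1* (KIM-1), the marker of injured proximal cells, was uneven. It was at 7.88, 1.5, 2.63, 3.48 and 6.84 CPM on LS and at 17, 2.71, 2.3, 37.3 and 28.1 CPM at HS21, with libraries 12 and 13 within the LS range and the other 3 above it, and it did not pass the test (log2 ratio 1.96, SE 0.73, adjusted *P* = 0.0509). The lowered genes included the keratin *Krt8* (-0.36). Matrix genes showed no common direction. Of 17 tested, 5 were raised and 3 lowered, against 18.9% and 20.5% of all genes. *Tgfb1*, the cytokine that drives scarring, was at 27.7, 23.7, 30.2, 25.3 and 26.1 CPM on LS and 47, 45.7, 34.3, 55.7 and 61 CPM at HS21 (log2 ratio 0.87, SE 0.14, adjusted *P* = 0.000511). *Col4a1*, a chain of basement membrane collagen, was at 717, 650, 793, 746 and 706 CPM and 371, 402, 428, 501 and 495 CPM (log2 ratio -0.72, SE 0.09, adjusted *P* = 0.000134), and *Col4a4* of the mature basement membrane was lowered by more (-1.06). *Fn1* (fibronectin) was not called (log2 ratio 0.18, SE 0.15, adjusted *P* = 0.369).

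Cell division genes were lower. Of 20 tested 11 were lowered and 1 was raised (median -0.73). *Mki67*, present in all dividing cells (ENSRNOG00000028137, chr1:207993895-208020454), was at 28.7, 21.2, 30.1, 29.5 and 22.6 CPM on LS and at 12, 12.8, 10.5, 12.3 and 16.7 CPM at HS21 (log2 ratio -1.04, SE 0.14, adjusted *P* = 0.000205). *Cenpf*, a kinetochore protein, was at 12.5, 7.58, 12.7, 9.69 and 8.61 CPM and 3.14, 3.91, 2.95, 1.8 and 4.92 CPM (log2 ratio -1.61, SE 0.25, adjusted *P* = 0.000487), and *Ccnb1* (cyclin B1) at 8.18, 5.03, 10.2, 10.3 and 5.07 CPM and 1.75, 2.97, 2.5, 2.36 and 4.72 CPM (log2 ratio -1.44, SE 0.30, adjusted *P* = 0.00279). All of these were without overlap. *Top2a*, the topoisomerase that untangles sister chromatids, was lowered with overlap from library 15 (-0.90). The single raised gene was *Mcm3*, a subunit of the helicase that opens DNA for replication, at 7.23, 3.83, 5.12, 5.85 and 3.78 CPM on LS and 7.92, 7.2, 8.14, 9.05 and 12 CPM at HS21 with overlap (log2 ratio 0.78, SE 0.21, adjusted *P* = 0.0108). With libraries scaled by total counts, 8 of the list were lowered and 2 raised.

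The promoters of *Top2a* and *Cenpf* are shown because both genes were lowered and both windows hold the cell cycle homology region TTTGAA, a motif of genes of late cell cycle. It was searched on both strands and is in 18.4% of the 33469 windows. Of the 20 tested cell division genes 16 had a window (80%) and 8 of those hold it, lowered and not called genes among them. Capitals mark the match, as its reverse complement in *Top2a*. *Top2a* is at chr10:84473044-84473343 and *Cenpf* at chr13:103760837-103761136, both on the minus strand of GRCr8.
Top2a: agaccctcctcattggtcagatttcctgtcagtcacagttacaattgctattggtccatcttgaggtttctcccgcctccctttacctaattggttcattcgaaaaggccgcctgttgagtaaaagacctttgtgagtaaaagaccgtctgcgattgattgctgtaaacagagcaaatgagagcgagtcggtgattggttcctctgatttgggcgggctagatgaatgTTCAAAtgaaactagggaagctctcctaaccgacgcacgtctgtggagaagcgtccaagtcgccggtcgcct
Cenpf: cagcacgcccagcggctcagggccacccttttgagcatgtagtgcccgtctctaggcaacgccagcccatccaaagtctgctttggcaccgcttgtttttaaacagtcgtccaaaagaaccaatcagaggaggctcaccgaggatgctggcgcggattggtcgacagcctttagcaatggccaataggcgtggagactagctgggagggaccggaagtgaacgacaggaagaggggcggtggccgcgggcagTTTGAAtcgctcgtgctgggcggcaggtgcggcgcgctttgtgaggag

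Most genes of fatty acid oxidation, peroxisomes and the TCA cycle were lowered. Of 17 genes of fatty acid oxidation 15 were lowered and none raised (median -0.48), of 15 peroxisome genes 11 were lowered and 1 raised (median -0.47), and of 19 TCA cycle genes 15 were lowered (median -0.28). *Hadh*, which acts on medium- and short-chain fatty acids, was at 269, 251, 247, 277 and 281 CPM on LS and 145, 147, 146, 130 and 149 CPM at HS21 (log2 ratio -0.88, SE 0.06, adjusted *P* = 3.28e-06). *Ehhadh* (-0.97), a peroxisomal enzyme, and *Slc22a5*, the carnitine carrier (-0.85), were lowered without overlap. *Eci1*, an isomerase for unsaturated fatty acids (-0.89), was lowered with overlap, as was *Cpt1a*, the gate of mitochondrial import (-0.55), for which library 11 lay in the LS range.

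Of 18 glycolytic genes 7 (38.9%) were raised and 4 (22.2%) lowered, against 18.9% and 20.5% of all genes, with a median of 0.00. Their mean log2 CPM was above the LS mean by 0.25 to 0.46 in the HS21 libraries, while the LS libraries lay between -0.06 and 0.09. Members with large ratios, such as *Hk3* (3.86), weigh more in this mean than in the median, so it does not stand for the typical member. *Pkm*, a pyruvate kinase (ENSRNOG00000011329, chr8:64481172-64502722), was at 125, 121, 120, 100 and 97.7 CPM on LS and at 266, 267, 228, 214 and 219 CPM at HS21 (log2 ratio 1.08, SE 0.09, adjusted *P* = 1.64e-05). *Hk1* was at 43.9, 39.5, 51.5, 42.2 and 42.7 CPM and 84.4, 84.7, 76.7, 64.5 and 80.6 CPM (log2 ratio 0.83, SE 0.09, adjusted *P* = 5.29e-05), and *Hk2* (0.96) and the leukocyte hexokinase *Hk3* (3.86) were raised too. In segments isolated from other rats, the study measured *Hk1* and *Pkm* by qPCR. It reported both as raised at HS21 in proximal tubules, without a difference in glomeruli or the other cortical tubules. Of the abundant enzymes of the lower pathway *Eno1* was lowered (-0.48). For gluconeogenesis *Pck1*, its rate-limiting enzyme, was at 7966, 9388, 10851, 10080 and 11765 CPM on LS and 5061, 4957, 4657, 5554 and 8042 CPM at HS21 (log2 ratio -0.82, SE 0.15, adjusted *P* = 0.00155), where library 15 reached the LS range. Of 10 genes of arginine, creatine and urea metabolism 7 were lowered and 1 raised (median -0.48). *Ass1*, which with its partner makes the arginine that the kidney exports, was at 1626, 1725, 1620, 1696 and 1565 CPM on LS and 958, 987, 1192, 1148 and 1233 CPM at HS21 (log2 ratio -0.58, SE 0.08, adjusted *P* = 0.000191). The creatine carrier *Slc6a8* (-0.65), glutamate dehydrogenase *Glud1* (-0.87) and *Acmsd*, a branch point enzyme on the way from tryptophan to NAD (-0.50), were lowered.

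Gene families were also counted by name, and each count stands beside the 18.9% raised and 20.5% lowered among all genes. Of 13 monocarboxylate and related carriers (Slc16) 9 were lowered and 3 raised (median -0.64). The members raised included the lactate exporter *Slc16a3* (0.68) and *Slc16a7* (1.04, with overlap). Of 14 organic ion carriers (Slc22) 9 were lowered and 1 raised (median -0.47), of 8 sodium-coupled sugar and solute carriers (Slc5) 5 were lowered and none raised (median -0.54), and of 8 zinc exporters (Slc30) 6 and none (median -0.30). Among amino acid carriers, 3 were raised and 3 lowered of 11 in Slc7, 2 and 5 of 10 in Slc6 (4 and 4 by total counts) and 2 and none of 4 in Slc1. *Slc7a5*, a carrier of growing and immune cells, was at 4.31, 3.6, 4.02, 6.2 and 4.76 CPM on LS and 10.1, 10.2, 9.0, 6.88 and 8.87 CPM at HS21 (log2 ratio 0.97, SE 0.17, adjusted *P* = 0.000974), and *Slc1a5*, a glutamine carrier, was raised as well (0.87). Of 11 genes of phosphate and vitamin D handling 7 were lowered and 2 raised. *Pth1r*, the parathyroid hormone receptor, was lowered without overlap (-0.51), and *Slc34a2*, a phosphate carrier found mainly outside the kidney, was raised (1.05).

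Cathepsins, the proteases of lysosomes, moved in both directions. *Ctsl* was at 2422, 2598, 2016, 2361 and 2265 CPM on LS and at 1170, 968, 1194, 1208 and 1085 CPM at HS21 (log2 ratio -1.05, SE 0.08, adjusted *P* = 1.17e-05). *Ctsz* was at 15.8, 13.7, 17.6, 14.4 and 12.9 CPM and 54.8, 46.3, 23, 67 and 80.2 CPM (log2 ratio 1.87, SE 0.27, adjusted *P* = 0.000317), and *Ctsw* of cytotoxic cells was raised by more (3.16). Over 12 of the family 6 were raised and 3 lowered. Of 79 ribosomal protein genes 53 were raised and 1 lowered (median 0.35), and of 20 S100 and annexin genes 15 were raised and none lowered (median 0.67). Ribosomal protein genes have many pseudogene copies, between which reads may be split. Chaperones of the Hsp and Dnaj families had 7 raised and 25 lowered of 64 (median -0.11). Of 41 subunits of respiratory complex I (Nduf) 2 were raised and 8 lowered (median -0.05), against 18.9% and 20.5% of all genes. Scaling by total counts, by which 30.8% of all genes were raised and 11.6% lowered, turned the larger number in both families. It gave 16 raised (25.0%) and 10 lowered (15.6%) for Hsp and Dnaj, and 11 raised (26.8%) and none lowered for Nduf, so that in both the share raised was still below that of all genes. Of 9 acyl-CoA dehydrogenases (Acad) 7 were lowered and none raised.

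**Figure D4:**
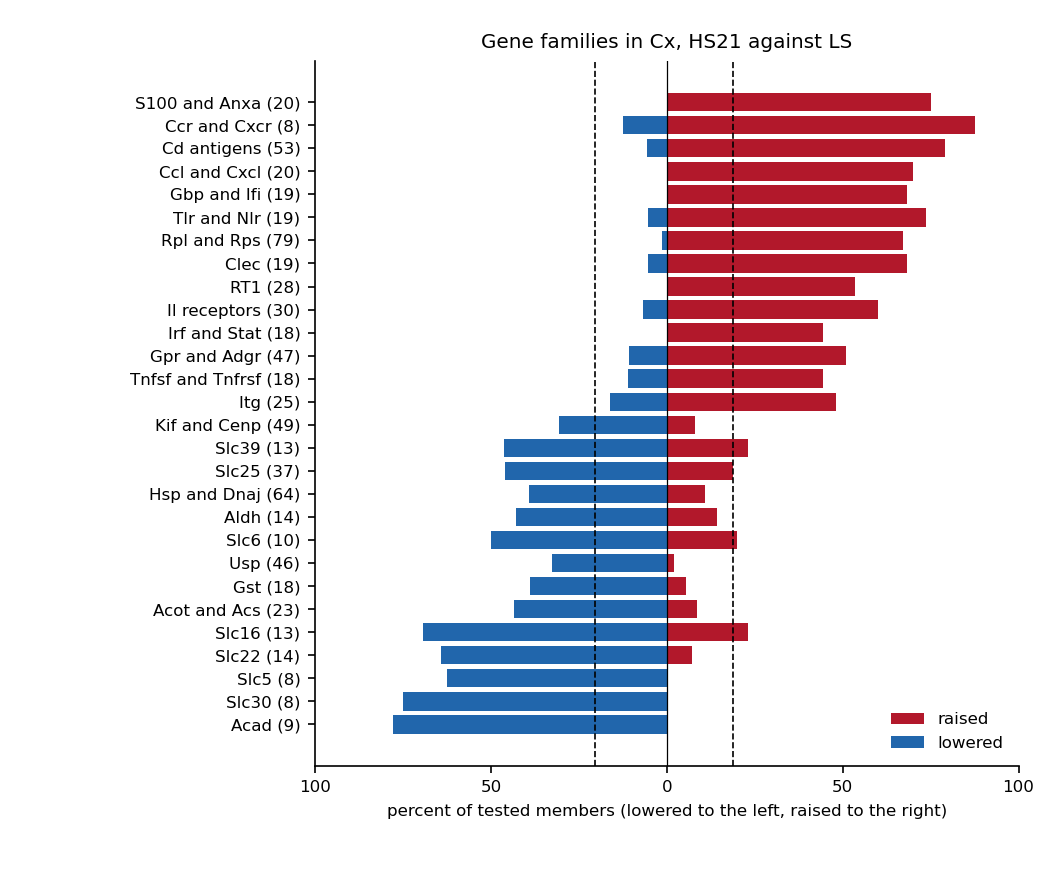
The percent of tested members raised (red, to the right) and lowered (blue, to the left) at HS21 against LS in Cx, for the 14 families with the highest and the 14 with the lowest difference between these percents among families with at least 8 tested genes (number in brackets). Dashed lines mark the 18.9% raised and 20.5% lowered among all genes tested. Immune, S100 and ribosomal protein families are raised, and carrier and acyl-CoA families are lowered, while scaling by total counts, which raised 30.8% and lowered 11.6% of all genes, gave 16 raised and 10 lowered for Hsp and Dnaj and 6 and 6 for Usp.

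Among the genes with the largest changes, several belong to none of the lists above. *Prima1*, which anchors acetylcholinesterase to membranes, was at 188, 191, 163, 207 and 112 CPM on LS and at 29.4, 35.6, 46, 33.8 and 23.5 CPM at HS21 (log2 ratio -2.36, SE 0.19, adjusted *P* = 1.52e-05). *Mlph*, a linker of organelles to myosin, was at 72.1, 74.9, 113, 101 and 60.6 CPM and 12.7, 19.9, 22.5, 18.9 and 34 CPM (log2 ratio -1.97, SE 0.24, adjusted *P* = 0.000133). Neither had overlapping groups. *Dnase1*, a secreted DNA-degrading enzyme of tubules, was raised evenly, from 157, 226, 209, 170 and 186 CPM to 543, 548, 495, 453 and 612 CPM (log2 ratio 1.48, SE 0.11, adjusted *P* = 6.79e-06). *Tmsb4x*, an actin-binding peptide abundant in leukocytes (1.36), *Lilrb4*, an inhibitory receptor of myeloid cells (3.25), and *Anxa13*, an epithelial annexin (2.0, with overlap), were raised.

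The time on the diet was examined by a direct test of HS21 against Cx at HS14. Of 14395 genes tested, 935 (6.50%) were higher and 1395 (9.69%) lower at HS21. The number raised fell to 451, 337 and 360 without HS14 libraries 7, 8 and 9 and to 473 and 505 without HS21 libraries 14 and 15, and it rose to 1476 without HS14 library 10. Of the 13 S1 and S2 markers 9 were lower at HS21 than at HS14 and none higher (median -0.56), as were 9 of 15 markers of the whole proximal tubule. *Slc4a4* differed by -1.49 on the log2 scale (adjusted *P* = 0.00644), *Lrp2* by -0.94 (adjusted *P* = 0.00391) and *Gatm* by -1.30 (adjusted *P* = 0.0262). Of 19 interferon genes 11 were higher at HS21 than at HS14 (median 1.03), with *Psmb8* at 1.88 (adjusted *P* = 0.00833) and *Gbp2* at 2.04 (adjusted *P* = 0.0167). Of the DCT, connecting tubule and intercalated cell markers none was higher at HS21 than at HS14, and 2 principal cell markers were.

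The changes from LS at HS14 and at HS21 share the LS libraries and are given side by side. At HS14, 2.33% of 14181 genes were called, 1.14% as raised and 1.18% as lowered. The S1 and S2 markers had a median of -0.12 at HS14 with 2 lowered and of -0.71 at HS21 with 13 lowered. The connecting tubule markers had a median of 0.60 at HS14 with none called and of 0.79 at HS21 with 5 raised. The T cell genes had a median of 1.24 with 5 raised and of 2.62 with 12 raised. Interferon genes had a median of -0.15 at HS14 with 1 raised and 3 lowered, *Mx1* among the latter (-1.10, adjusted *P* = 0.0407). Fatty acid oxidation had 9 of 17 genes lowered by HS14 and 15 at HS21, with medians of -0.25 and -0.48. *Prima1* was near its HS21 change at HS14 (-2.39 against -2.36), and in the direct test the difference between HS14 and HS21 was 0.04 (adjusted *P* = 0.939).

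**Figure D5:**
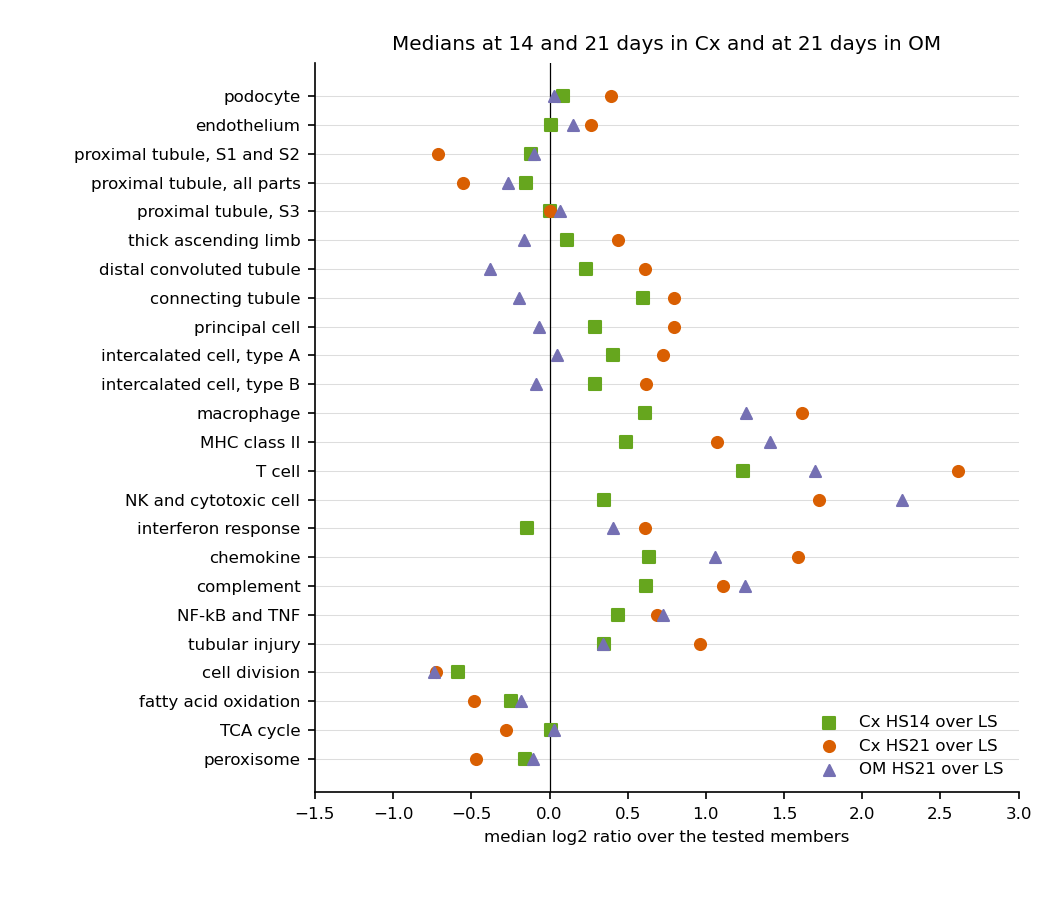
The median log2 ratio over the tested members of 24 lists (y axis) is drawn for Cx at HS14 over LS (green squares), Cx at HS21 over LS (orange circles) and OM at HS21 over LS (purple triangles), where both Cx contrasts share the LS libraries. Proximal S1 and S2 markers are near 0 except in Cx at HS21, though in the OM some of them were low or uneven between libraries. T cell and macrophage genes are above 0 in all 3, and cell division genes are below -0.5 in all 3.

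The change at HS21 was compared with that in the OM by the tissue by diet interaction over 20 libraries. Of 15194 genes tested 101 (0.665%) were called, 33 (0.217%) with a higher and 68 (0.448%) with a lower change in Cx. Over the 20 fits that left out 1 library these numbers ran from 4 to 546 and from 34 to 729, with the highest pair when OM LS library 2 was left out and the next (73 and 112) when OM HS21 library 11 was. The OM LS libraries were uneven in *Slc12a3* (8.61 to 354 CPM) and *Slc14a2* (0 to 524 CPM). The part of this unevenness in these numbers was not tested. In the OM itself 0.769% of 14555 genes were called at HS21, 0.639% as raised and 0.131% as lowered, and none of the 13 S1 and S2 markers was called. Some of these markers were low or uneven in the OM LS libraries, with *Slc5a12* at 0 to 30.6 CPM and *Slc34a1* at 127 to 4389 CPM. The lack of a call there therefore does not show that these segments were unchanged. *Umod* was raised in Cx and had a log2 ratio of -0.30 in the OM, a difference of 1.01 (adjusted *P* = 0.0415). *Pkm* was at 1.08 in Cx and 0.12 in the OM (difference 0.97, adjusted *P* = 0.0138). *Mlph* was at -1.97 and -0.04 (-1.92, adjusted *P* = 0.0238) and *Ogdh*, a subunit of a TCA cycle complex, at -0.63 and 0.18 (-0.80, adjusted *P* = 0.00501). With the replicate number as a block *Mlph* was not called (adjusted *P* = 0.0718). None of the listed leukocyte, T cell, complement or interferon genes was called as different between the tissues. The 12 tested T cell genes had a median of 2.62 in Cx and 1.70 in the OM, and the 20 cell division genes -0.73 and -0.74.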

How the data were processed

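Per the labels and the study's methods, poly(A) RNA was sequenced without strand information, and the authors aligned reads to Ensembl Rnor_6.0 with HISAT2 2.0.5, assembled with StringTie 1.3.3b and counted with featureCounts 1.5.0-p3. The deposited table holds, for 32545 genes, raw counts of read pairs and FPKM values that the authors scaled by library and gene length. Its columns of the authors' own comparisons (log2 fold changes, *P* values, adjusted *P* values and group means) were not used.

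Counts were tested with edgeR 4.0.16 (R 4.3.3), using filterByExpr, TMM scaling and the quasi-likelihood F-test, with Benjamini-Hochberg adjustment over all genes tested and a threshold of 0.05. The comparison of Cx HS21 with Cx LS, that of Cx HS21 with Cx HS14, and the tissue by diet interaction over Cx and OM were each fitted on their own libraries. CPM values are TMM-scaled. In a heat map and in means over lists, log2 CPM has a prior count of 2. The edgeR fit of each of these comparisons was tried on simulated counts, and the alternatives and the values over lists were not. Alternatives were RLE size factors, scaling by total counts, no filter on low counts, DESeq2 1.42.0, limma 3.58.1 on log2 of the deposited FPKM plus 1, intron share (bases mapped to introns over all mapped bases) as a covariate, the replicate number as a block for the interaction, and leaving out each library.

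The 62 gene lists (790 entries, of which 696 were tested, 80 were too low and 14 were not analysed here) and 78 families were chosen with earlier results of these data known. Genes named were each list's defining genes, its up to 3 raised and 3 lowered called members with the largest log2 ratios and a mean of at least 1 CPM, the same for up to 2 a side in each family, and over all genes the 12 a side with the largest change (mean of at least 5 CPM, no overlap) and the 5 a side with the highest level among those changed at least 2-fold. This gave 524 genes, of which 131 are used here, and the results of some others are not reported here. *RT1-Ba*, *RT1-Bb*, *Mx1* and *Isg15* fall outside it and were chosen after their values were seen. Promoter sequences were taken from RefSeq (GRCr8), whose coordinates were not converted. The study's methods state that kidneys were cut into both tissues, so that Cx and OM libraries of a diet share kidneys, which the interaction as fitted does not take into account. That equal numbers mark 1 kidney is not stated. Libraries of equal number had correlated deviations from their group means at HS21 (0.24 to 0.44), less so on LS (-0.07 to 0.10), and 9 of 10 were highest with their own number, so the block is given beside the interaction where it changes a call. Between 13953714 and 21842843 counts per library lie behind each Cx value and between 12748841 and 15810724 behind each OM value, and libraries of a group differed by more than sampling noise.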

Additional observations from a re-analysis of the deposited data

Results flagged for a closer look

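For the 135 genes named, each group of 5 Cx libraries was searched for 1 library far from the other 4 (Dixon's ratio above 0.71), which chance gives in about 1 of 20 groups. It was met in 20 of 270 groups. In LS library 1 it was met by *RT1-Ba* at 0.876 CPM, against 43.3 to 54.2 CPM in the other LS libraries, and by *RT1-Bb* at 8.83 CPM against 111 to 135 CPM. The same library was low for *Nphs1* (107 CPM), *Foxi1* (29.1 CPM) and *Robo2* (14.9 CPM) and high for *Spp1* (296 CPM against 119 to 152 CPM). LS library 3 was high for *Aqp6* (124 CPM) and *Nfkbia* (51.6 CPM), LS library 4 was high for *Slc16a9* (100.6 CPM), and LS library 5 was low for *Cdkn1c* (17.5 CPM) and *Cldn10* (93.1 CPM).

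Among the HS21 libraries, number 13 stood nearest to LS for *Slc5a2* (557 CPM against 439 to 446 CPM), *Slc34a1* (6051 CPM against 3968 to 4317 CPM) and *Rgs5* (23.2 CPM). Library 15 was high for *Ppara* (40.2 CPM), *Pck1* (8042 CPM) and *Top2a* (15.6 CPM), library 14 was low for *Hadh* (130 CPM), and library 11 was high for *Eci1* (127 CPM) and *Robo2* (37.4 CPM).

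The change from LS to HS21 differed between Cx and OM by the interaction test for 5 of the genes named. The log2 ratio in Cx minus that in the OM was 1.01 for *Umod*, 0.97 for *Pkm*, -1.92 for *Mlph*, -0.80 for *Ogdh* and -0.64 for *Slc6a8*. With the replicate number as a block 4 of the 5 were still called, all but *Mlph* (adjusted *P* = 0.0718).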

How the results depend on the processing

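Against 2702 raised and 2936 lowered genes in Cx at HS21, scaling by total counts gave 4401 and 1653 and the intron share as a covariate 700 and 893. RLE size factors, no filter, DESeq2 and limma on FPKM each gave counts within 1.5 times of these, and leaving out each library gave 2389 to 2749 and 2533 to 3000. For HS21 against HS14 (935 raised, 1395 lowered), total counts gave 2084 and 644, DESeq2 gave 1469 raised, and leaving out each library 337 to 1476 and 692 to 2048. For the interaction with the OM (33 higher in Cx, 68 lower), total counts gave 54 higher, no filter 10 higher, DESeq2 199 and 341, and leaving out each library 4 to 546 and 34 to 729. The cause was not tested. With the replicate block the interaction gave 34 and 60. Cx LS and Cx HS21 share no numbers. Of 126 called genes named here, 120 kept their call whichever library was left out, 123 with total counts, 122 with limma and 64 with the intron share. Direction turned with the intron share for *Ptgs2* (0.51) and *RT1-Ba* (2.79). Without 1 library it turned for *RT1-Ba* (-0.94 to 0.12), *RT1-Bb* (-0.32 to 0.54; -0.12 with limma) and *Mx1* (-0.068, without HS21 library 15, to 0.28). None of these but *Ptgs2* was called. *Slc9a3*, *Nos1* and *Havcr1*, not called here, were not called in 9, 8 and 8 of the fits that left out 1 library. They passed in the rest, with a lowest adjusted *P* of 0.0275, 0.0324 and 0.0158. With 5 libraries a group, small changes in genes as variable as *Havcr1* were not detectable.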
